A study of Mus musculus with 4 samples.

Results

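Amino acid transporters are described here: 10 genes of the 15768 in the deposited gene table, taken by their symbols (Slc3a2, Slc7a5, Slc7a11, Slc7a1, Slc7a3, Slc1a4, Slc1a5, Slc38a1, Slc38a2 and Slc6a9). All 10 were listed and all 10 passed the filter on low counts. RNA-seq was done on JoMa1.3, a mouse line of neural crest cells that were immortalised in a conditional way, collected 72 h after transfection with 60 nM siRNA. The control siRNA group (genotype label WT) received a non-targeting pool and the Lkb1 siRNA group (genotype label Lkb1 KD) a pool against Stk11, the gene of the kinase LKB1. Each group held 2 libraries, 1 from batch 1 and 1 from batch 2, and all cultures shared a medium with N2, B27, EGF, FGF and chick embryo extract. Beyond a number and a batch the labels are silent on how independent the cultures were, so the p-values reach no further than these libraries. The spread behind them is estimated in part across all genes, not from each gene alone.

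Cells take up amino acids through carriers that differ in substrate and driving force. Slc3a2 encodes the heavy chain CD98, which brings light chains such as LAT1 (Slc7a5) and xCT (Slc7a11) to the plasma membrane. LAT1 exchanges large neutral amino acids such as leucine, and xCT exchanges cystine for glutamate and so feeds glutathione synthesis. Slc7a1 and Slc7a3 encode the cationic amino acid transporters CAT1 and CAT3, Slc1a4 and Slc1a5 the neutral exchangers ASCT1 and ASCT2, Slc38a1 and Slc38a2 the sodium-coupled neutral transporters SNAT1 and SNAT2, and Slc6a9 the glycine transporter GLYT1. Several of these genes are known targets of ATF4, the transcription factor made when amino acids run short.

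Library totals in the gene table ran from 17426719 to 19324675 counts. Stk11, the siRNA target, was at 52.7 and 52.1 FPKM in control siRNA and 36.3 and 36.9 FPKM in Lkb1 siRNA, so both libraries of each group lay on the side of their labels. Of 10 neural crest markers 8 were listed, with a sum of 131 to 142 FPKM per library. Sox10 and Foxd3, 2 defining markers, were not among the listed genes. Absence from the listed genes is not by itself a measure of a gene's level. Of 5 smooth muscle markers 2 were above 1 FPKM in control siRNA (Acta2 and Tagln); the list summed to 409 and 382 FPKM in control siRNA and to 327 and 308 FPKM in Lkb1 siRNA, and Cnn1, Myh11 and Des were near 0. Neuron markers (3 of 8 listed, with Elavl3 at or near 0) summed to 24.6 and 19.8 FPKM in control siRNA and to 31.4 and 25.0 FPKM in Lkb1 siRNA, and glia markers (5 of 7 listed) to 2.81 and 3.61 against 2.39 and 2.87 FPKM. No marker of any list passed without a block; with batch as a replicate block 1 neural crest marker rose and 1 fell, Acta2, Tagln and the glia marker Erbb3 fell (log2 fold change -0.41, -0.31 and -0.65, blocked edgeR adjusted p 1.59e-14, 4.99e-08 and 7.27e-06) and the neuron markers Tubb3 and Uchl1 rose (0.32 and 0.29, blocked edgeR adjusted p 0.0436 and 0.0411). Melanocyte markers summed to 1.57 to 1.62 FPKM (3 of 5 listed). The part of these markers' shifts in the results below was not tested, and in bulk RNA fewer cells of a type and less RNA per cell cannot be told apart.

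At baseline 3 genes held most of the message. Per length, in FPKM (fragments scaled by transcript length and library size), Slc3a2 was at 134 and 133, Slc7a5 at 96.3 and 83.8, and Slc38a2 at 75.2 and 80.2 in the control siRNA libraries of batch 1 and batch 2. Together they made up 74.1 and 74.7% of the summed FPKM of the 10 genes, with Slc3a2 alone at 32.5 and 33.5%. These 3 genes exceeded 95.7, 93.3 and 92.2% of all listed genes in control siRNA level. The order was Slc3a2, Slc7a5 and Slc38a2, and no control library of one overlapped the next.

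A middle group followed, and Slc38a2 was 3.26-fold above the highest of it. Slc7a1 was at 23.8 ± 3.11 FPKM (mean ± SD, n = 2), Slc6a9 at 23.7 ± 1.15 and Slc1a5 at 23.0 ± 1.34, and the ranges of these neighbours overlapped, so their order was not resolved. Slc1a4 at 17.2 ± 0.24 and Slc38a1 at 12.98 ± 1.04 FPKM lay below them without overlap. Slc7a3 and Slc7a11 stood far lower, at 1.75 ± 0.191 and 1.08 ± 0.0566 FPKM, and Slc38a1 was 7.44-fold above Slc7a3. Among the 10 genes, the higher of each pair of relatives was Slc7a1 over Slc7a3 (16.1- and 11.5-fold by FPKM in the 2 control libraries), Slc38a2 over Slc38a1 (5.48- and 6.55-fold) and Slc1a5 over Slc1a4 (1.38- and 1.30-fold).

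**Figure D1:**
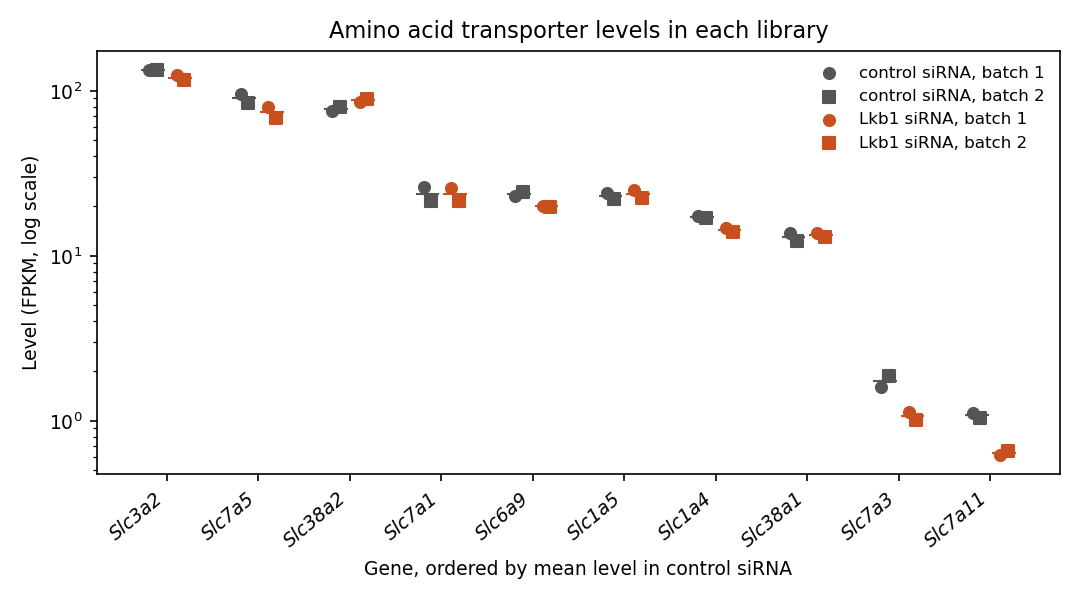
Level of each of the 10 transporter genes in each library (y axis, FPKM on a log scale; x axis, genes ordered by mean control siRNA level). Points are libraries, circles for batch 1 and squares for batch 2, and short lines are group means; Slc3a2, Slc7a5 and Slc38a2 sit near 100 FPKM and Slc7a3 and Slc7a11 near 1.

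The heavy chain stood close to the sum of its light chains. The light chain genes known to pair with CD98 that were listed, with Slc7a5 the largest, summed to 125 and 112 FPKM in control siRNA, so that Slc3a2 stood at 1.07 and 1.19 times their sum. In Lkb1 siRNA the sum was 110 and 96.9 FPKM and the ratio 1.132 and 1.199. Slc7a5 exceeded Slc7a11 85.9- and 80.6-fold in control siRNA and 129- and 104-fold in Lkb1 siRNA. These are ratios of message levels.

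Promoter sequences from RefSeq (build GRCm38.p6; the files' build is GRCm39) were matched by gene ID for 6 of the 10 genes, as windows of 250 bases before to 50 bases after each start. They were searched on both strands for TGATGCAA, the core of the C/EBP-ATF response element (CARE) to which ATF4 binds with a C/EBP partner. The sequences below, from 120 bases before to 20 after the start and 5′ to 3′ on the gene's strand, show the genes that hold the core and, beside them, the heavy chain and the transporter that moved the other way; capitals mark the matches.
Slc7a11 (chr3:50443594-50443733, minus strand): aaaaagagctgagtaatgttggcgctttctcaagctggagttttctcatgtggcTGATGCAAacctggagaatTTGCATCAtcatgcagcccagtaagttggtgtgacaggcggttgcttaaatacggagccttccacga
Slc1a4 (chr11:20332694-20332833, minus strand): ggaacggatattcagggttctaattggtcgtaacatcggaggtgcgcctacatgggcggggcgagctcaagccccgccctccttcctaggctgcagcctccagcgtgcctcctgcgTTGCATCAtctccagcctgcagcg
Slc3a2 (chr19:8713878-8714017, minus strand): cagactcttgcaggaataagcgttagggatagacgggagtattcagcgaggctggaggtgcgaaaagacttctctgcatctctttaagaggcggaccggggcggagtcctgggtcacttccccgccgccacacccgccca
Slc38a2 (chr15:96699709-96699848, minus strand): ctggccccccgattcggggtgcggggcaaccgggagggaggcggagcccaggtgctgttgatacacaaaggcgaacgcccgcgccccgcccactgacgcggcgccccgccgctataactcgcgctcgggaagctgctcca

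The Slc7a11 window held the core 2 times, in opposite orientations, from -66 to -59 and from -47 to -40 relative to the start. The Slc1a4 window held it 1 time, across the start from -4 to 4. No match lay in the windows of Slc3a2, Slc38a2, Slc7a1 or Slc6a9, which says only that these letters are not in those windows. Of 32851 mouse promoter windows of the same length, 0.895% held the core at all and 2 windows, those of Slc7a11 and Chchd10, held it at least 2 times. The letters TGATGNAA, of which the core is a special case, matched nothing further in the 6 genes and were in 3.97% of windows. The antioxidant response core TGACNNNGC, known for NRF2, matched in Slc38a2, Slc7a1 and Slc6a9 and in 12.4% of all windows, and the E-box CACGTG, in 7.15% of windows, matched in none of the 6 genes. A match is a description of the sequence and not a bound site.

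Between the groups, 6 transporter genes were lower in both Lkb1 siRNA libraries than in both controls (Slc7a11, Slc7a3, Slc7a5, Slc1a4, Slc6a9 and Slc3a2), 1 was higher (Slc38a2), and 3 overlapped (Slc7a1, Slc1a5 and Slc38a1). Of all 12222 genes tested, 21.4% lay below and 21.2% above without overlap. In the fit without a block (edgeR's quasi-likelihood test, adjusted over all genes, threshold 0.05), 0 of the 10 passed as lower and 0 as higher, where 0.0491% of all genes passed as lower and 0.0327% as higher. At an unadjusted p under 0.05, the same fit gave 6 members lower and 0 higher, against 5.53 and 5.61% of all genes. The labels pair the libraries by batch, and with batch as a replicate block 6 fell and 1 rose, where 6.99% of all genes passed as lower and 6.59% as higher. The median log2 fold change of the 10 genes was -0.25, against 0.00049 over all genes tested. With DESeq2, 0 passed without the block, where 31 of 15739 genes fell and 16 rose. With the block 1 member passed (Slc7a5) among the 8 that received an adjusted p. Over all genes 80 fell and 44 rose, of 15739 with a p-value, not all of which received an adjusted p. In that blocked DESeq2 fit the adjusted p was 0.103 for Slc3a2, 0.254 for Slc1a4, 0.266 for Slc6a9 and 0.403 for Slc38a2. Slc7a11 and Slc7a3 received none.

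**Figure D2:**
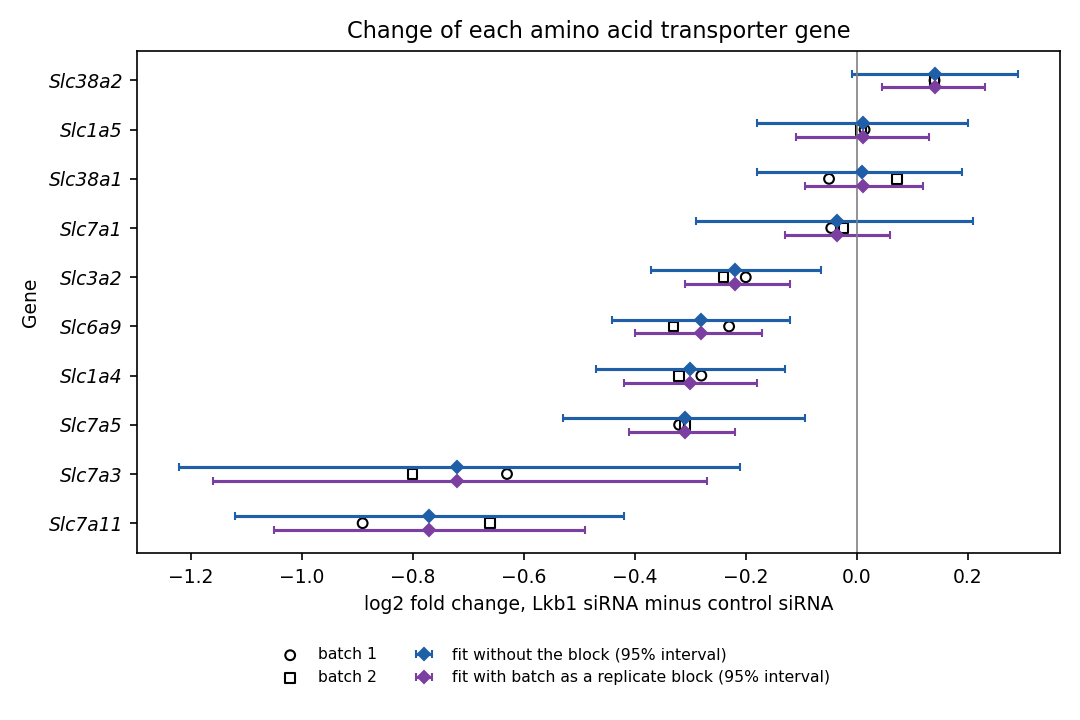
Log2 fold change of each gene (x axis, Lkb1 siRNA minus control siRNA; y axis, genes). Open circles and squares are batch 1 and batch 2, diamonds with bars are fitted values with 95% confidence intervals without and with the replicate block; the intervals of 6 genes lie below 0 in both fits, and that of Slc38a2 lies above 0 with the block.

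The light chains come first. Slc7a11, the cystine carrier, had 187 and 177 reads in control siRNA and 97 and 109 in Lkb1 siRNA, or 1.12 and 1.04 against 0.62 and 0.66 FPKM. Both Lkb1 siRNA libraries lay well below both controls. In TMM-scaled CPM (counts scaled by library size) it was at 9.69 ± 0.727 against 5.67 ± 0.206, a log2 fold change of -0.77 (standard error 0.154, 95% confidence interval -1.12 to -0.42), or -41.4%. The adjusted p in edgeR was 0.133 without the block and 5.33e-06 with it, and the change was -0.89 in batch 1 and -0.66 in batch 2. The adjusted p in edgeR was 0.0488 and 0.0101 without control siRNA replicate 1 and replicate 2, and 0.173 and 0.132 without Lkb1 siRNA replicate 1 and replicate 2; in such fits 1 group is a lone library, assumed to vary like the other group. On log2(FPKM + 1) the change was -0.34, where the added 1 is as large as the levels themselves. On log2(FPKM + 0.1) it was -0.67.

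Slc7a5, the leucine carrier, was at 96.3 and 83.8 FPKM in control siRNA and at 79.8 and 68.7 FPKM in Lkb1 siRNA. Batch 1 was above batch 2 in both groups, and the groups did not overlap. The log2 fold change in counts was -0.31 (standard error 0.0977, 95% confidence interval -0.53 to -0.094), or -19.6%, with -0.32 in batch 1 and -0.31 in batch 2. Its adjusted p in edgeR was 0.311 without the block and 1.38e-08 with it, and 0.00127 in DESeq2 with the block. With 1 library left out, the adjusted p in edgeR was 0.288 and 0.00891 without control siRNA replicate 1 and replicate 2, and 0.0383 and 0.893 without Lkb1 siRNA replicate 1 and replicate 2.

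Slc3a2, their heavy chain, had a log2 fold change nearer to 0, and the difference from its light chains was not tested. It was at 253 and 245 CPM in control siRNA and at 220 and 208 CPM in Lkb1 siRNA, a log2 fold change of -0.22 (standard error 0.0677), or -13.9%. The adjusted p in edgeR was 0.311 without the block and 2.60e-04 with it. The FPKM values, 134 and 133 against 124 and 116, gave -0.15 on log2(FPKM + 1), and scaling by library size in place of TMM gave -0.18. The genes with the pattern nearest to Slc3a2 over the 4 libraries were sought by Euclidean distance of centred log2 CPM among 9370 genes. They were Insig1 (0.00816), Uqcr11 (0.00983) and Mrpl48 (0.0192). Insig1 encodes a sterol-regulated retention protein of the endoplasmic reticulum. A near pattern over only 4 libraries, picked from so many genes, does not show a link to Slc3a2, and none was tested.

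Of the cationic carriers, the rare one was lower and the abundant one overlapped between the groups; the difference between their changes was not tested. Slc7a3 had 63 and 75 reads in control siRNA and 39 and 42 in Lkb1 siRNA, or 1.61 and 1.88 against 1.13 and 1.01 FPKM. Both Lkb1 siRNA libraries were lower, on few reads. The log2 fold change was -0.72 (standard error 0.224, 95% confidence interval -1.22 to -0.21), or -39.1%, with an adjusted p in edgeR of 0.311 without and 0.0174 with the block. Slc7a1, its abundant relative, was at 26.0 and 21.6 FPKM in control siRNA and at 25.9 and 21.6 FPKM in Lkb1 siRNA. Batch 1 stood above batch 2 in both groups and the groups overlapped. Its log2 fold change was -0.036, with a 95% confidence interval from -0.29 to 0.21 without the block and from -0.13 to 0.06 with it (adjusted p in edgeR = 0.929 and 0.702). The ratio of Slc7a1 to Slc7a3 was 16.1 and 11.5 in control siRNA and 22.9 and 21.4 in Lkb1 siRNA by FPKM.

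Of the neutral exchangers of the Slc1 family, Slc1a4 was lower and Slc1a5 overlapped; the difference between their changes was not tested. Slc1a4, ASCT1, which carries serine, alanine and cysteine, was at 17.35 and 17.01 FPKM in control siRNA and at 14.8 and 13.9 FPKM in Lkb1 siRNA. The Lkb1 siRNA libraries were lower without overlap. Its log2 fold change was -0.30 (standard error 0.0748, 95% confidence interval -0.47 to -0.13), or -18.6%, with -0.28 in batch 1 and -0.32 in batch 2 (adjusted p in edgeR = 0.214, or 6.69e-05 when blocked). Slc1a5, ASCT2, the main glutamine exchanger of many proliferating cells, was at 24.0 and 22.1 against 25.0 and 22.6 FPKM, and the groups overlapped. Its log2 fold change was 0.011, with a 95% confidence interval from -0.18 to 0.20 (adjusted p in edgeR = 0.977, or 0.938 when blocked). Slc1a5 stood at 1.38 and 1.30 times Slc1a4 in control siRNA and at 1.69 and 1.63 times in Lkb1 siRNA by FPKM.

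Slc6a9, the glycine carrier, was at 22.9 and 24.5 FPKM in control siRNA and at 20.1 and 19.9 FPKM in Lkb1 siRNA. The groups did not overlap, and the Lkb1 siRNA libraries lay close together. The log2 fold change was -0.28 (standard error 0.0703, 95% confidence interval -0.44 to -0.12), or -17.7%, with -0.23 in batch 1 and -0.33 in batch 2. The adjusted p in edgeR was 0.213 without the block and 8.99e-05 with it.

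Of the sodium-coupled neutral carriers, Slc38a2 was higher and Slc38a1 overlapped; the difference between their changes was not tested. Slc38a2, SNAT2, a glutamine and alanine carrier induced by amino acid shortage, was at 75.2 and 80.2 FPKM in control siRNA and at 85.6 and 89.2 FPKM in Lkb1 siRNA. Both Lkb1 siRNA libraries were above both controls. Its log2 fold change was 0.14 (standard error 0.0656, 95% confidence interval -0.0084 to 0.29), or 10.1%, and 0.14 in each batch. The adjusted p in edgeR was 0.468 without the block, 0.0329 with the block, and 0.0729 with the block and an offset for gene length, so the call rested on that setting. Slc38a1, SNAT1, was at 13.72 and 12.25 against 13.73 and 13.02 FPKM, with overlap, and its log2 fold change was 0.0087 with a 95% confidence interval from -0.18 to 0.19 (adjusted p in edgeR = 0.98, or 0.928 when blocked).

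The shares of single genes moved while the leading 3 together held nearly the same share. Slc3a2, Slc7a5 and Slc38a2 together held 74.1 and 74.8% of the summed FPKM in Lkb1 siRNA, against 74.1 and 74.7% in control siRNA. Slc7a5 went from 23.4 and 21.1% to 20.4 and 18.7%, and Slc38a2 from 18.3 and 20.2% to 21.9 and 24.3%. Slc38a2 was therefore above Slc7a5 in both Lkb1 siRNA libraries, at 1.07 and 1.30 times its FPKM, and below it in both controls, at 0.781 and 0.957 times. By FPKM Slc3a2 was first in all 4 libraries. In CPM, which is not per length, it was below both in every library, and Slc38a2 was above Slc7a5 also in the controls (324 against 317 and 336 against 271). The summed FPKM of the 10 genes was 412 and 397 in control siRNA and 391 and 367 in Lkb1 siRNA.

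**Figure D3:**
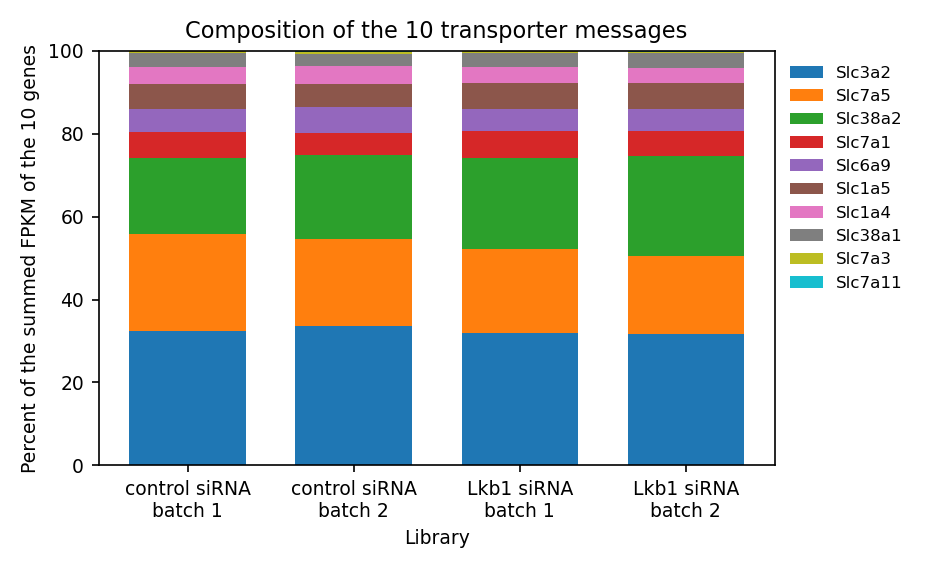
Share of each gene in the summed FPKM of the 10 transporter genes (y axis, percent) in each library (x axis). Slc3a2 holds 31.7 to 33.5% in all 4 libraries, the Slc7a5 share is smaller and the Slc38a2 share larger in the Lkb1 siRNA library of each batch, and Slc7a3 and Slc7a11 are each under 0.5%.

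The transcript table listed 31 RefSeq transcripts of the 10 genes, of which 22 were tested. None passed as lower or higher in edgeR's test, with or without the block, where 0% of the 34279 transcripts tested passed in either direction. The only listed transcripts of Slc7a5 and Slc1a4 held the same reads as their genes. With the block their adjusted p in edgeR was 0.925, against 1.38e-08 and 6.69e-05 in the gene test. The lack of transcript calls therefore does not show that the transcripts were unchanged. At an unadjusted p under 0.05, 3 were lower and 1 higher without the block, against 3.61 and 3.13% of all. The lower ones were the only listed transcript of Slc1a4 (log2 fold change -0.31, standard error 0.0707), the main transcript of Slc6a9 (NM_008135, -0.34, standard error 0.0773) and 1 Slc3a2 transcript (NM_008577, -0.47, standard error 0.103). NM_008577 held 32.4 and 28.3% of the Slc3a2 FPKM in control siRNA and 23.6 and 26.7% in Lkb1 siRNA. The leading Slc3a2 transcript, XM_036161455, held 63.5 and 66.2% against 71.6 and 68.8%, with a log2 fold change of -0.083 (standard error 0.0741, adjusted p in edgeR = 1). The higher one was a minor Slc7a1 transcript (NM_001301424) at 0 and 0.16 against 3.20 and 1.67 FPKM (adjusted p in edgeR = 0.732). The main Slc7a1 transcript, NM_007513, held 80.3 to 91.5% of that gene in every library. Assignment of reads between transcripts of 1 gene is an estimate, and its error is not in these standard errors.

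Transporters outside these 10 genes lay on both sides of 0. Of 34 other plasma membrane carriers 26 were listed and 13 tested; 5 had a log2 fold change below 0 and 8 above, with a median of 0.048. None passed without the block, and with it 2 rose and 0 fell. They were Slc38a3, the glutamine carrier SNAT3 (5.76 FPKM in control siRNA, log2 fold change 0.45, standard error 0.12, adjusted p in edgeR = 0.234, or 4.04e-04 when blocked), and Slc43a2, the large neutral carrier LAT4 (1.83 FPKM, 0.44, standard error 0.128, adjusted p in edgeR = 0.28, or 0.00256 when blocked). The next by p were Slc7a7, the CD98 light chain y+LAT1 (-0.52, standard error 0.27), and Slc16a10 (0.43, standard error 0.236), with adjusted p in edgeR of 0.509 and 0.529 (0.225 and 0.207 with the block). By level, the highest of these other carriers in control siRNA were Slc6a6, the taurine transporter (32.3 ± 2.46 FPKM), Slc7a6, the light chain y+LAT2 (25.8 ± 0.488 FPKM), and Slc7a2, the cationic carrier CAT2 (20.6 ± 2.26 FPKM). Slc7a2, at 18.99 and 22.18 FPKM in control siRNA, overlapped Slc7a1.

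Of 16 carriers of mitochondrial and lysosomal membranes 15 were tested, with 6 below and 9 above 0 and a median log2 fold change of 0.007. None passed without the block, and with it 1 of 15 did, a share near the 6.59% of all genes called higher: the mitochondrial glutamate carrier Slc25a22 (0.36, standard error 0.0911, adjusted p in edgeR = 0.216, or 1.25e-04 when blocked). Of 27 genes of the amino acid sensing pathways of mTORC1 and GCN2, not all of them sensors, 11 were below and 16 above 0, with a median of 0.029. None passed without the block, and with it 1 of 27 did, a share below the 6.99% of all genes called lower: the Ragulator subunit Lamtor2 (-0.29, standard error 0.0928, adjusted p in edgeR = 0.317, or 4.05e-04 when blocked).

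The ATF4 and amino acid response genes, none of which is among the 10 transporters, lay below 0. All 33 listed of 35 had a log2 fold change below 0, 30 in both batches, with a median of -0.23. Of all 12222 genes tested, 6092 were below 0. Without the block 3 fell and 0 rose (Trib3, Atf5 and Aldh1l2). With the block 26 fell and 0 rose, where 6.99% of all genes passed as lower. This list, like the 10 transporters, was chosen with earlier results of these data known. Chac1, a glutathione-degrading enzyme, was next by p (-0.70, standard error 0.115, adjusted p in edgeR = 0.0847, or 1.08e-11 when blocked). Of the 10 transporters 7 were below 0, all 7 of them in both batches, where 33.4% of all genes were lower in both batches. Among factors known to act on transporter genes, Atf4 itself was at -0.21 (standard error 0.082, adjusted p in edgeR = 0.392, or 4.15e-04 when blocked) and Myc at -0.34 (standard error 0.117, adjusted p in edgeR = 0.344, or 2.05e-05 when blocked). Trp53, whose product is known in human cells to repress SLC7A11, rose (0.74, standard error 0.0782, adjusted p in edgeR = 0.026). Bach1, a repressor of antioxidant genes, was at 0.21 (standard error 0.0873, adjusted p in edgeR = 0.427, or 0.0246 when blocked). Nfe2l2, the gene of NRF2, which activates Slc7a11, was at 0.083 (standard error 0.0789, adjusted p in edgeR = 0.733, or 0.253 when blocked). Whether any of these factors had a part in the transporters' differences was not tested.

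**Figure D4:**
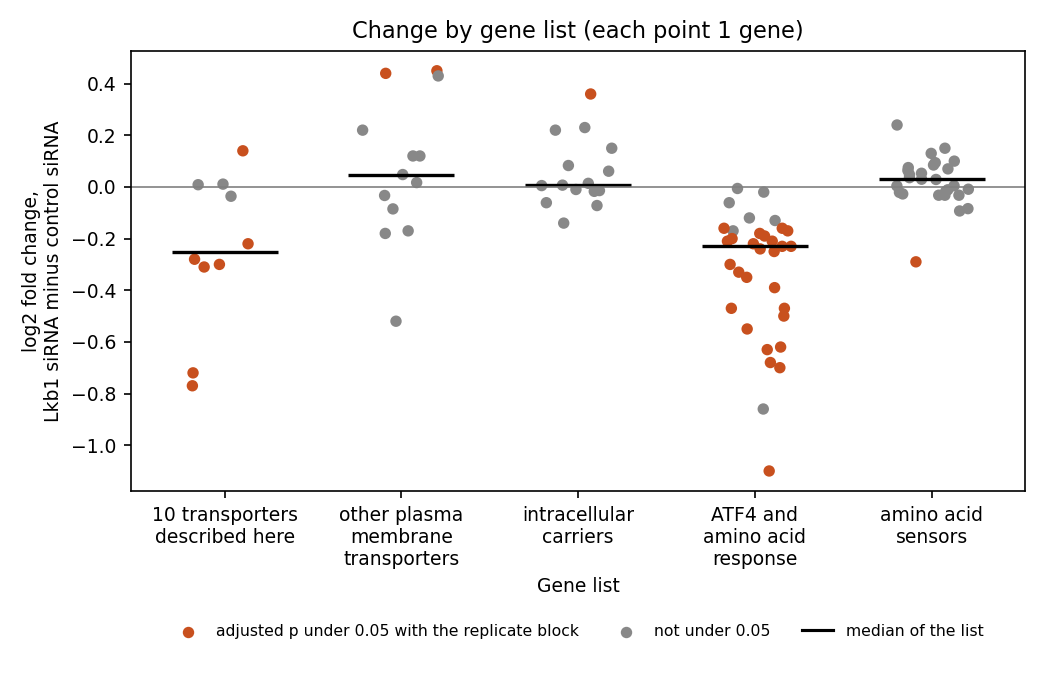
Log2 fold change (y axis, Lkb1 siRNA minus control siRNA, fit without the block) of each tested gene in 5 lists (x axis), with black lines at list medians and orange points for genes that passed with the replicate block. The 10 transporters (median -0.25) and the ATF4 and amino acid response genes (-0.23) lie mostly below 0. The other carriers and the sensing pathway genes (labelled amino acid sensors) lie around it.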

How the data were processed

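The submitters' processing notes name RSEM 1.2.8, Bowtie2 2.2.5 and HISAT2 2.0.4 and the build GRCm39, but not what each tool did; the annotation release is not given in the sources used here. Libraries were sequenced as 150 bp read pairs, and the labels name 2 transfection reagents without assigning them to samples. The deposited read counts are expected counts, estimated by the authors per gene and per transcript; the share of values that were not whole was 5.73 to 5.97% per library in the gene table (tolerance 0.001). The file headers name the other deposited values FPKM, by definition scaled by library size and transcript length, without saying how they were estimated. In 14 cells of the gene table and 31 of the transcript table a doubled decimal point was read as 1 point, and 2 symbols turned into dates were restored through the gene ID.

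Rounded counts entered edgeR 4.0.16 under R 4.3.3 (quasi-likelihood F-test, robust, TMM, expression filter with a minimum count of 10), which left 12222 genes; Benjamini-Hochberg adjustment ran over all of them, with a threshold of 0.05. Standard errors were derived from the F statistic. The labels give each library a batch, which pairs the libraries; across genes, the departures from the group mean of libraries sharing a batch had a correlation of 0.259. The main test had no block, and a second one took batch as a replicate block. The common biological coefficient of variation was 6.39% and 3.15%. With the block, the standard errors of Slc7a5, Slc3a2, Slc38a2 and Slc7a1 were nearly alike, at 0.0485, 0.0485, 0.0482 and 0.0488. Blocked p-values of such well measured genes thus rest largely on the spread that edgeR shares across genes. Alternatives were other scalings and filters, DESeq2 1.42.0, limma 3.58.1 on log2(FPKM + 1) and log2(FPKM + 0.1), removal of the trend with gene length, and leaving out each library. The tests were checked on simulated data.

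The 10 members and all gene lists were chosen with earlier results of these data known, and the promoter motifs after the values were seen. Genes named outside the members were Stk11, up to 4 genes with the smallest p of each list, and the 3 genes nearest in pattern to the leading member. Slc6a6, Slc7a6, Slc7a2, Nfe2l2, the marker genes and the genes named by their promoter core were chosen after their values were seen.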

Additional observations from a re-analysis of the deposited data

Results flagged for a closer look

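Slc38a1 had opposite signs in the batches, at -0.05 in batch 1 and 0.072 in batch 2 on the log2 scale, a difference of 0.12. The difference was not tested, since each batch held 1 library of either group.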

How the results depend on the processing

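Over 147 values of single members under 15 alternatives, 7 members (all but Slc7a1, Slc1a5 and Slc38a1) kept their sign in every value available. Not covered were Slc7a3 under the filter of at least 5 CPM, and Slc7a3 and Slc7a11 in DESeq2 with the block. With the replicate block, and with it when the length trend was removed, 6 members passed as lower; 1 passed as higher with the block and 0 with both. Over all genes, edgeR with the block called 854 of 12222 lower and 806 higher. DESeq2 with the block called 80 lower and 44 higher, of 15739 genes with a p-value, not all of which received an adjusted p. Of the members, DESeq2 with the block called 1 as lower. Leaving out 1 library gave 0 to 2 lower calls. In such fits 1 group is a lone library, assumed to vary like the other group. That count of calls was not set against all genes, and no conclusion is drawn from it. The median of the 10 genes was -0.19 and -0.20 with limma on log2(FPKM + 1) and log2(FPKM + 0.1). With a library left out it ran from -0.27 to -0.19. Slc3a2 held 18.6% of the members' CPM, which is not per length, against 33.0% of their FPKM. Slc38a1 was at -0.018 and -0.015 with the length trend removed, without and with the block, and from -0.089 to 0.11 with a library left out. Slc7a1 ranged from -0.17 to 0.11 and Slc1a5 from -0.065 to 0.088 in those fits. The cause of these moves was not tested. Slc7a3 and Slc7a11, on 39 to 187 reads, have the widest intervals.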

Other observations

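Outside the 10 transporters, the CARE core TGATGCAA described above was looked up in the promoter windows of all tested genes. Of 69 tested genes with the core, 15 fell and 0 rose with the replicate block (21.7 and 0%), and their median log2 fold change was -0.11. Of all 9761 tested genes with a window, 6.95% fell and 6.72% rose. Slc7a11 and Slc1a4 were among the 15, as were Chac1, Pycr1, Aars and Nupr1 of the ATF4 list. Without the transporters and that list, 9 of 61 genes fell (14.8%) and 0 rose. The 9 were Herpud1, a degradation factor of the endoplasmic reticulum (-0.49), Fbln5 (-0.56), Jdp2 (-0.33), Hax1 (-0.23), the tRNA synthetases Yars (-0.20) and Iars (-0.14), Gadd45g (-0.34), Serpinf1 (-0.17) and Got1, an aspartate aminotransferase (-0.17). For the looser letters TGATGNAA, which take in the genes with the core, 11.2% of 258 genes fell and 3.88% rose. Their median log2 fold change was -0.028, so the shift was smaller than for the exact core. For the E-box CACGTG, 6.6% of 1152 genes fell and 7.29% rose, and for TGACNNNGC 7.73% of 1631 fell and 5.89% rose. These are counts on 1 set of libraries, chosen after the values were seen, with no test.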
